A study of Mus musculus with 6 samples.

Results

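The laminin chain genes Lama2, Lama4, Lama5, Lamb1, Lamb2 and Lamc1, the nidogen genes Nid1 and Nid2, and the heparan sulfate proteoglycan genes Hspg2 (perlecan) and Agrn (agrin) were examined in RNA-seq libraries whose labels give the tissue as mouse skeletal muscle. These 10 genes were chosen by symbol from the 43432 genes of the count files, and all 10 were found and passed the filter on low counts. The series concerns a mouse model with Igf1 deleted in FAPs, that is, fibro-adipogenic progenitors, connective tissue cells of muscle that can form fat and scar, and its question is what the loss of FAP-derived IGF-I does to these cells. There were 3 libraries with titles naming them Control-D3 and 3 with titles naming them FID-D3; the labels spell out neither FID nor D3, nor the alleles or the Cre driver, nor whether each library had an animal of its own. Per the labels' protocols, which are the same for both groups, mice of either sex were injected with tamoxifen at 12 to 13 weeks of age at 100 ug per g for 5 days, and at least 1 week passed before further experiments.

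Laminins are cross-shaped trimers of an alpha, a beta and a gamma chain that polymerise into the sheet of the basement membrane around muscle fibres, vessels and nerves. Nidogens and perlecan tie the laminin sheet to the network of type IV collagen, and the globular ends of laminin alpha chains, perlecan and agrin bind the sugar chains of dystroglycan on the cell surface. In muscle this link runs through dystroglycan and dystrophin to the fibre's cytoskeleton, loss of the alpha chain encoded by Lama2 causes a congenital muscular dystrophy, and agrin of the motor nerve organises the neuromuscular junction.

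In the libraries labelled FID, 9 of the 10 genes had a log2 fold change below 0 against control, as did 52.2% of all genes tested, and the median over the 10 was -0.74, against -0.02 over all genes tested. For 8 genes (Lama2, Lama4, Lamb1, Lamb2, Lamc1, Nid1, Nid2 and Hspg2) every FID library lay below every control library, a separation in that direction shown by 12.3% of all genes tested. The fitted level in FID was 50.7% of control for Lama2, the lowest of the 10, and 71.8% for Lamc1, the highest of those 8. Lama5 and Agrn overlapped between the groups, and Agrn was the gene with a log2 fold change above 0. None of the 10 genes passed edgeR's adjusted threshold of 0.05, which 0.00% of the 12881 genes tested passed. At an unadjusted p under 0.05, 8 of the 10 genes were lower, against 9.21% of all genes tested, and 0 were higher, against 9.81%. DESeq2 called 6 of the 10 lower (Lama2, Lama4, Lamb2, Nid1, Nid2 and Hspg2), against 2.27% of all genes, and 0 higher, against 3.67%; limma-voom called 0, against 0.00%. Without FID 1, edgeR called Lama2, Lama4 and Lamb1, against 0.578% of genes called lower in that fit. With 1 library left out, the number lower at an unadjusted p under 0.05 ran from 6 without FID 3 (4.17% of all genes) to 9 without control 3 (10.9%). Values are CPM, the usual counts-per-million unit over gene reads, scaled with TMM factors, given as mean ± SD over 3 libraries. Fold changes are FID over control on the log2 scale, with standard errors (SE) and p from the quasi-likelihood test of edgeR, adjusted by Benjamini-Hochberg over all genes tested.

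Igf1, the gene the model deletes, had a log2 fold change of -0.01 (edgeR adjusted p 0.990, SE 0.28), so this transcript gives no check of the labels, and libraries are called control or FID by label. Gene counts per library ranged from 5201853 in control 1 to 10093757 in control 3. The defining markers of mature fibres were scarce: 10 myofibre markers summed to between 12.4 and 77.3 CPM per library, and Ckm, the muscle creatine kinase, reached at most 1.19 CPM. FID 1 and control 1 stood apart from the other libraries of their groups in several of the genes below, where values without one of them are given.

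The alpha chains set where a laminin is placed and which receptor it meets. Lama2 (ENSMUSG00000019899, mm10 chromosome 10, 26980036 to 27619758, minus strand) encodes the alpha chain typical of muscle and Schwann cell basement membranes. It stood at 236, 183 and 173 CPM in control libraries 1 to 3, against 128, 85.1 and 87.3 CPM in FID libraries 1 to 3. Every control library was above every FID library, and FID 1 lay between the other FID libraries and the controls. The control mean was 197 ± 34.1 CPM and the FID mean 100.0 ± 24.1 CPM. The log2 fold change was -0.98 (95% interval -1.46 to -0.50, SE 0.21, edgeR adjusted p 0.136). With 1 library left out, it ran from -1.18 without FID 1 to -0.83 without control 1.

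Lama4 (ENSMUSG00000019846, chromosome 10, 38965515 to 39110188, plus strand) encodes an alpha chain of vessel and nerve basement membranes that lacks the short arm of the others. It stood at 538, 529 and 494 CPM in control libraries 1 to 3, against 410, 273 and 265 CPM in FID libraries 1 to 3. The controls were tightly grouped, and FID 1 again lay nearest to them. The log2 fold change was -0.72 (edgeR adjusted p 0.143, SE 0.19). With 1 library left out, it ran from -0.94 without FID 1 to -0.61 without FID 3.

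Lama5 (ENSMUSG00000015647, chromosome 2, 180176373 to 180225859, minus strand) encodes the large alpha chain found in vessels and epithelia. It stood at 158, 73.4 and 56.3 CPM in control libraries 1 to 3, against 51.3, 70.6 and 47.9 CPM in FID libraries 1 to 3. Control 1 was far above the remaining 5 libraries, whose ranges overlapped. The log2 fold change was -0.75 (95% interval -1.63 to 0.12, edgeR adjusted p 0.320, SE 0.38), and -0.20 without control 1.

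The beta and gamma chains are shared by many laminin trimers. Lamb1 (ENSMUSG00000002900, chromosome 12, 31265234 to 31329644, plus strand), the widespread beta chain, stood at 887, 789 and 660 CPM in control libraries 1 to 3, against 630, 324.5 and 359 CPM in FID libraries 1 to 3. FID 1 lay just below control 3, so the separation of the groups was narrow. The log2 fold change was -0.83 (edgeR adjusted p 0.181, SE 0.27). With 1 library left out, it ran from -1.17 without FID 1 to -0.65 without FID 2. Lamb2 (ENSMUSG00000052911, chromosome 9, 108479736 to 108490530, plus strand), the beta chain concentrated at neuromuscular junctions and vessel walls, stood at 340, 297 and 243 CPM in control libraries 1 to 3, against 169, 182 and 156 CPM in FID libraries 1 to 3. Here the FID libraries were close together, with FID 1 between the other two, and the log2 fold change was -0.79 (edgeR adjusted p 0.136, SE 0.16). With no filter on low counts, edgeR called Lama2 and Lamb2 (adjusted p 0.0406 and 0.0469), in a fit that called 0.239% of genes lower.

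Lamc1 (ENSMUSG00000026478, chromosome 1, 153218922 to 153332786, minus strand) encodes the gamma chain of most laminins. It stood at 1106, 1005 and 788 CPM in control libraries 1 to 3, against 676, 718 and 687 CPM in FID libraries 1 to 3. The spread among the controls, 163 CPM (SD), was larger than that among the FID libraries, 21.9 CPM, and control 3 lay nearest to FID. The log2 fold change of -0.48 (edgeR adjusted p 0.182, SE 0.15) was the smallest in size of the 8 genes that separated the groups.

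**Figure D1:**
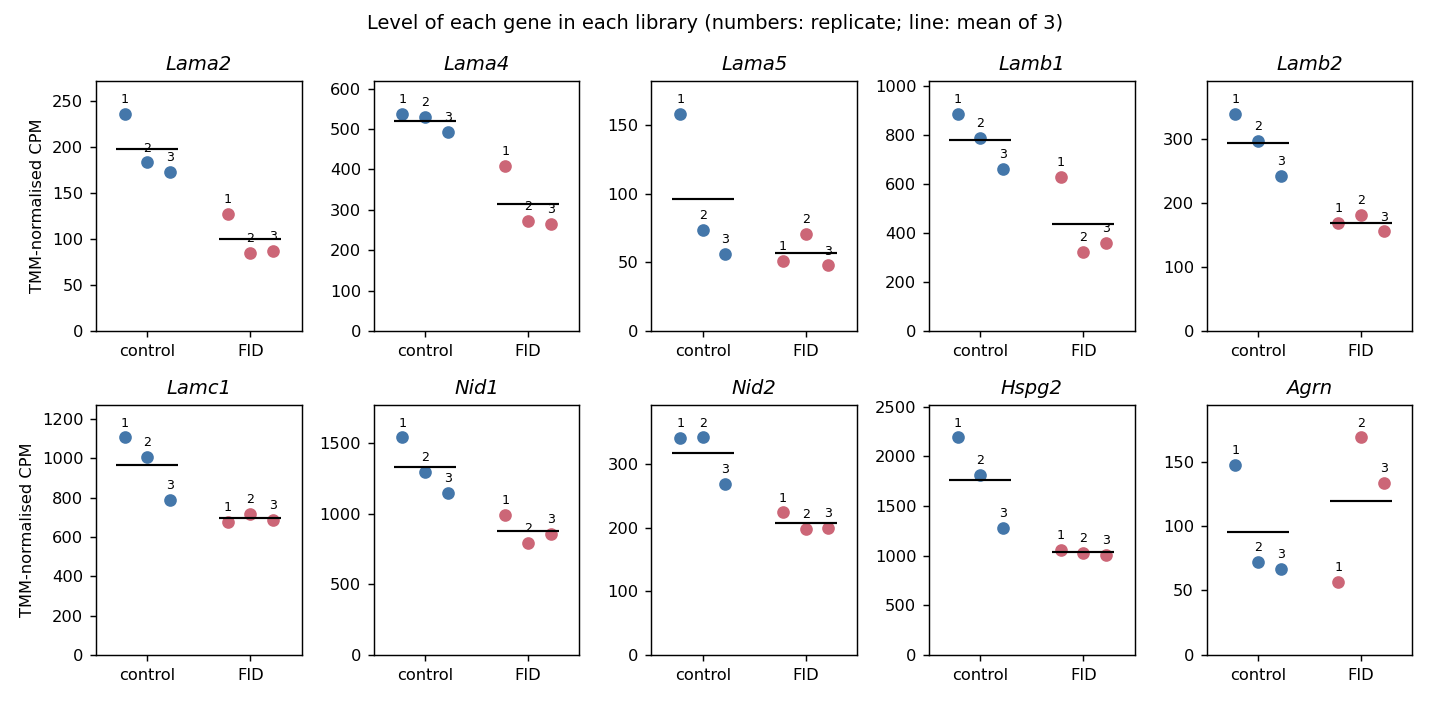
TMM-normalised CPM (vertical axes, from 0) of the 10 genes in the 3 control (blue) and 3 FID (red) libraries, with replicate numbers and a line at each mean. FID lay below control in 8 panels, whereas Lama5 and Agrn overlapped; FID 1 was the highest FID library for Lama2 at 128 CPM and the lowest for Agrn at 56.3 CPM.

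Nidogens bridge the gamma chain of laminin and type IV collagen. Nid1 (ENSMUSG00000005397, chromosome 13, 13437551 to 13512269, plus strand) stood at 1542, 1297.5 and 1150.5 CPM in control libraries 1 to 3, against 992, 794 and 856 CPM in FID libraries 1 to 3. Nid2 (ENSMUSG00000021806, chromosome 14, 19751265 to 19811787, plus strand) stood at 341, 342 and 269 CPM in control libraries 1 to 3, against 224, 198 and 200.3 CPM in FID libraries 1 to 3. Both separated the groups, with control 3 the lowest control and FID 1 the highest FID library in each. The log2 fold changes were -0.59 (edgeR adjusted p 0.148, SE 0.16) for Nid1 and -0.61 (edgeR adjusted p 0.136, SE 0.14) for Nid2. Exons of Nid2 overlap those of Rtraf on the other strand over 437 bases (8.45% of its exon length), and the strand setting of the counting is not given in the sources used here.

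The proteoglycans carry both laminin-binding and dystroglycan-binding parts. Hspg2 (ENSMUSG00000028763, chromosome 4, 137468769 to 137570630, plus strand), perlecan, had the most reads of the 10 genes and stood at 2190, 1815 and 1275.5 CPM in control libraries 1 to 3, against 1060.5, 1024 and 1009 CPM in FID libraries 1 to 3. The FID libraries were nearly equal, whereas the controls spread widely, with an SD of 460 CPM against 26.5 CPM in FID. The log2 fold change was -0.77 (edgeR adjusted p 0.141, SE 0.20); without control 1 it was -0.59.

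Agrn (ENSMUSG00000041936, chromosome 4, 156165290 to 156197488, minus strand) went another way. It stood at 148, 71.9 and 66.6 CPM in control libraries 1 to 3, against 56.3, 169 and 134 CPM in FID libraries 1 to 3. FID 2, control 1 and FID 3 were high, while FID 1 was the lowest of all 6 libraries, so the groups overlapped over nearly their whole range. The log2 fold change was 0.33 (95% interval -0.71 to 1.38, edgeR adjusted p 0.720, SE 0.45). It was 0.003 without FID 2, 0.15 without control 3, 0.17 without control 2, 0.69 without FID 1 and 0.79 without control 1.

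**Figure D2:**
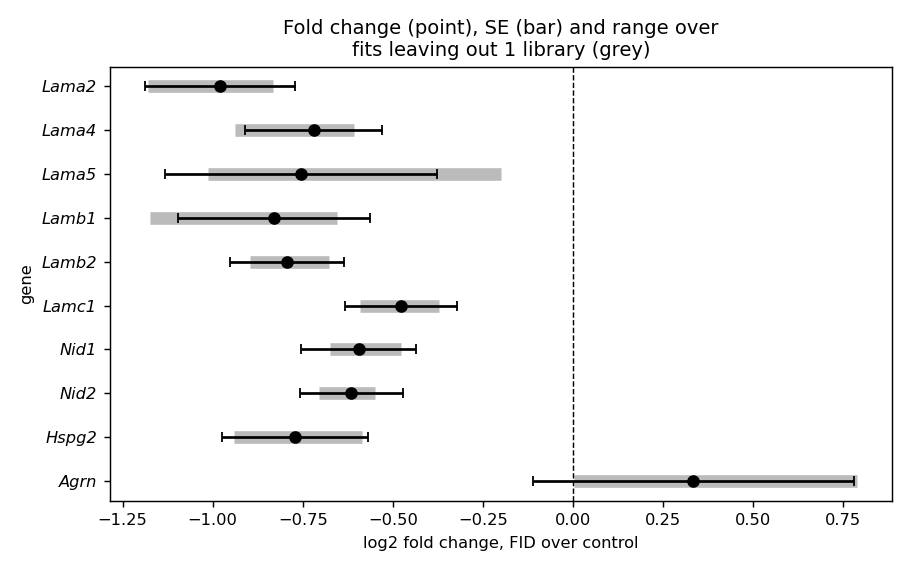
Log2 fold change of FID over control (horizontal axis) for each gene, with the edgeR estimate as a point, its SE as a bar and the range over the 6 fits that leave out 1 library in grey. The grey ranges of 9 genes lay below 0, that of Lama5 reaching -0.20, and that of Agrn ran from 0.003 to 0.79.

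The 6 libraries were not uniform within their groups. Control 1 was the highest control for 9 of the 10 genes, the exception being Nid2, and control 3 was the lowest for all 10. Among the FID libraries, FID 1 was the highest for 6 genes and the lowest for Lamc1 and Agrn. Centred on each gene's mean over the libraries, Lamb1 stood at 0.15 in FID 1 and at -0.81 and -0.66 in FID 2 and 3, on the log2 scale. Hspg2, on the same scale, stood at -0.33, -0.38 and -0.40 in those libraries. Lama5 in FID stood at -0.44, 0.02 and -0.54 and Nid1 at -0.12, -0.44 and -0.33.

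**Figure D3:**
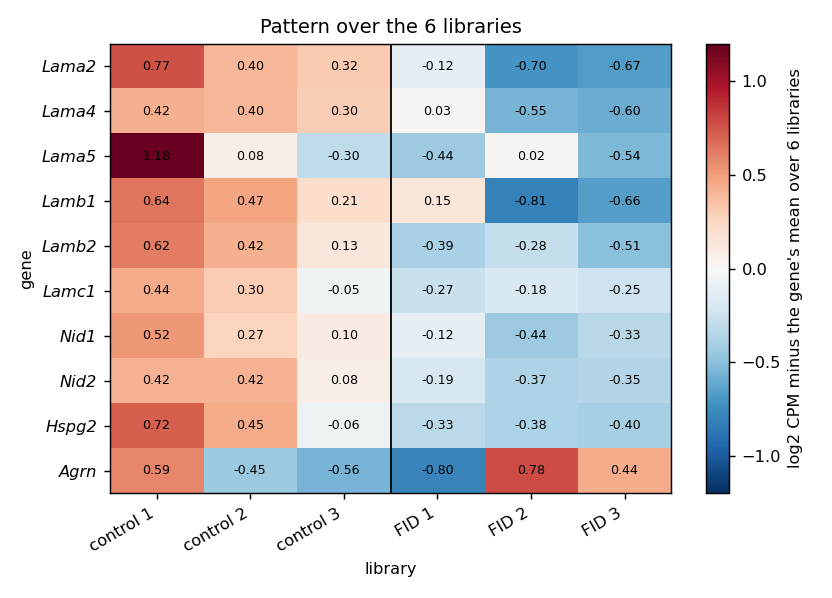
Log2 CPM of each gene (rows) in each library (columns) minus the gene's mean over the 6 libraries, in colour and figures. Most rows run from positive values in control 1 to negative values in FID; Agrn instead stands at 0.78 and 0.44 in FID 2 and 3 and at -0.80 in FID 1.

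Scaled by exon length, the levels kept a wide range. In control, Nid1 stood at 192 ± 28.5 CPM per kb of exon, followed by Hspg2 at 123 ± 32.1 and Lamc1 at 117 ± 19.7, and the library ranges of the latter pair overlapped. Lamb1 followed at 78.5 ± 11.5, Nid2 at 61.4 ± 8.08, Lamb2 at 48.2 ± 7.97 and Lama4 at 43.1 ± 1.95 CPM per kb. The ranges of Nid2 and Lamb2 overlapped, as did those of Lamb2 and Lama4. The lowest were Lama2 at 12.1 ± 2.09, Agrn at 10.3 ± 4.88 and Lama5 at 8.43 ± 4.79 CPM per kb, each overlapping the next. In FID, Nid1 was again the highest, at 127 ± 14.6, and Lama5 the lowest, at 4.97 ± 1.08 CPM per kb.

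A trimer needs its chains in proportion, so the balance between alternative alpha or beta chains was compared within libraries, where scaling between libraries plays no part. The nidogen pair and the proteoglycan pair are not trimer chains. They were compared in the same way, as pairs of related genes. Of the summed length-scaled level of the 5 alpha chains, Lama4 made up 67.2 ± 6.69% in control and 68.8 ± 3.65% in FID. Lama2 made up 18.6 ± 0.654% in control and 16.2 ± 1.01% in FID. Lama4 was thus the main alpha chain transcript in every library, by this measure. The summed alpha chains stood at 64.8 ± 9.17 CPM per kb in control and 37.8 ± 7.94 in FID, and the beta chains at 127 ± 19.4 and 72.0 ± 16.9. Lamc1 alone, of the gamma chains, stood at 117 ± 19.7 CPM per kb in control and 83.9 ± 2.65 in FID.

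Of 6 ratios tested, that of Lama2 to Lama4 was the one without overlap between the groups. It was 0.325, 0.256 and 0.259 in control libraries 1 to 3, against 0.231, 0.230 and 0.244 in FID libraries 1 to 3. The difference of the mean log2 ratios was -0.24 (exact two-sided permutation p 0.10, the smallest that 3 against 3 libraries can give; 0.60 after Benjamini-Hochberg adjustment over the 6 ratios), and -0.13 without control 1. Lamb2 to Lamb1 was 0.625, 0.615 and 0.601 in the controls and 0.438, 0.915 and 0.709 in FID 1, 2 and 3. The controls were nearly equal and the FID libraries fell on both sides of them, with a difference of 0.10 on the log2 scale (exact permutation p 0.70, adjusted 0.90) that was -0.14 without FID 2. Nid2 to Nid1 ranged from 0.297 to 0.354 in control and from 0.303 to 0.334 in FID, with a difference of -0.02 (exact permutation p 0.80, adjusted 0.90).

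Agrn to Hspg2 was 0.104, 0.0610 and 0.0805 in control libraries 1 to 3, against 0.0819, 0.254 and 0.204 in FID libraries 1 to 3. FID 2 and 3 were above all controls and FID 1 was among them. The difference was 1.02 on the log2 scale (exact permutation p 0.20, adjusted 0.60); it was 1.51 without FID 1 and 0.70 without FID 2. Lama2 to Lama5 and Lama4 to Lama5 overlapped between the groups, with differences of -0.35 and -0.11 (exact permutation p 0.40 and 0.90, adjusted 0.80 and 0.90), and control 1 was the lowest control for both. For Lama2 to Lama5 the difference was -0.65 without control 1, -0.60 without FID 1, -0.13 without control 3 and -0.08 without FID 2.

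**Figure D4:**
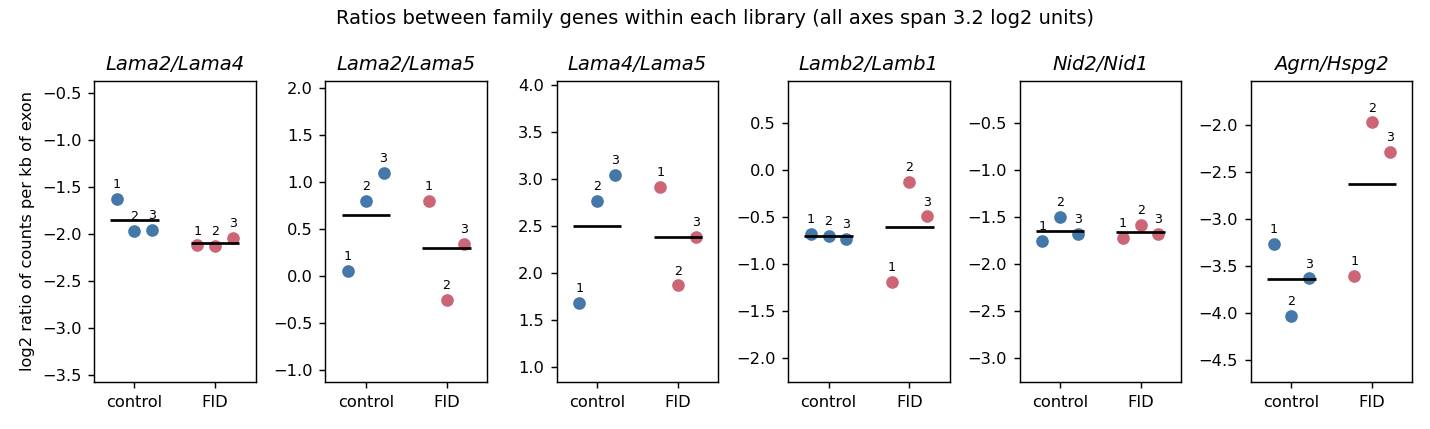
Log2 ratio of length-scaled counts of 2 genes within each library, for 6 gene pairs, with the mean of each group as a line. The Lama2 to Lama4 ratio was lower in all FID libraries by a mean difference of -0.24, whereas the Agrn to Hspg2 ratio was high in FID 2 and 3 and not in FID 1.

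Promoter windows differed widely in base composition. RefSeq promoter sequences (GRCm38.p6, 250 bases before the start, on the gene's strand) were at hand for 7 of the 10 genes: Lama2, Lama5, Lamb1, Lamb2, Nid1, Hspg2 and Agrn. The windows of 3 of them are shown because their windows hold no annotated exon, and they set the alpha chain with the lowest log2 fold change beside Agrn, the gene above 0; capitals mark the GC box, GGGCGG on either strand.

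Lama2, chr10:27616943-27617192, minus strand: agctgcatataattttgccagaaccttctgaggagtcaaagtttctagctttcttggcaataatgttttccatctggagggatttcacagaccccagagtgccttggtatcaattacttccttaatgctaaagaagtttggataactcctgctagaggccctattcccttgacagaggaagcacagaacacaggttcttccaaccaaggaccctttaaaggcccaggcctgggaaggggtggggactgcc

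Lama5, chr2:180225860-180226109, minus strand: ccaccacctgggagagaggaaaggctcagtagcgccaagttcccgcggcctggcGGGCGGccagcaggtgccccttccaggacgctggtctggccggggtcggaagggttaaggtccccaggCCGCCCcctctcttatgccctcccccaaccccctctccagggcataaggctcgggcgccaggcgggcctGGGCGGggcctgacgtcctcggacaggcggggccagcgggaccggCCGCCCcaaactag

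Agrn, chr4:156197489-156197738, minus strand: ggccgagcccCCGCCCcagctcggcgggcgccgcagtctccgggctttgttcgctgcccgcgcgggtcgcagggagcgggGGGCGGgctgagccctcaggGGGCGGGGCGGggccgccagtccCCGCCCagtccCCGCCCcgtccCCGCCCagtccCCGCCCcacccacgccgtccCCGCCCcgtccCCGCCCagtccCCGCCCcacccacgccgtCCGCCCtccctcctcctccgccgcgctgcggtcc

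The window of Lama2 ends just before a RefSeq start that lies 2816 bases inside the GENCODE gene. This window held no GC box and no CG dinucleotide, at 47.2% G and C. That of Lamb2 held no GC box either, with 3 CG dinucleotides and 43.6% G and C. Lama5 had 4 GC boxes, Hspg2 5, Lamb1 2, Nid1 1 and the first window of Agrn 12, some of them overlapping, at 83.6% G and C. A GC box occurred in 32.7% of the 32851 windows of this length in the table, whose median was 52.4% G and C. TATAAA and the AP-1 site TGANTCA were found in none of the 7 genes' windows, against 12.4% and 6.75% of all windows, and CCAAT was found in those of Lamb1 and Nid1, against 33.8%, each motif searched on both strands. These matches describe letters in the window and were not tested against expression.

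Genes that bind, modify or neighbour these proteins were taken from lists, which were chosen with earlier results of these data known. DESeq2 called 6 of the 15 tested genes lower in the list of other basement membrane components (Col4a1, Col4a2, Col15a1, Smoc2, Sparc and Pxdn) and 0 genes in the lists of other laminin chains, the dystroglycan and dystrophin complex, the enzymes of its sugar, laminin-binding receptors, heparan sulfate synthesis and the agrin receptor (no adjusted p was given for 1 gene each of the first and second); edgeR called no gene in any list, as in the whole table. Of 17 other basement membrane components, 15 were tested and all 15 had a log2 fold change below 0, with a median of -0.76. At an unadjusted p under 0.05, 8 were lower. Over all genes tested, 52.2% were below 0, 9.21% were lower at that p, and DESeq2 called 2.27% lower. Pxdn, the peroxidase that cross-links type IV collagen, measured 555, 457 and 391 CPM in the controls, against 298.5, 263 and 281 CPM in the FID libraries (log2 fold change -0.74, SE 0.16). Col4a1 and Col4a2, the chains of the widespread type IV collagen, had -1.34 (SE 0.33) and -1.23 (SE 0.31). Of the other laminin chains, the log2 fold change was -0.98 (SE 0.43) for Lama3 and -0.95 (SE 0.64) for Lamc3. Lamc3 had at most 13 counts, or 1.27 CPM, in any library. Lama3 reached 19.4 CPM in control 1, and the remaining libraries lay between 4.21 and 7.81 CPM, while Lama1 and Lamb3 stayed at or below 1.58 and 0.676 CPM.

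Medians nearer to 0 were measured for the receptors of these ligands. Dag1, dystroglycan itself, stood at 342, 292 and 272 CPM in control libraries 1 to 3, against 232, 247 and 253 CPM in FID libraries 1 to 3. Its groups did not overlap, and the log2 fold change was -0.31 (edgeR adjusted p 0.268, SE 0.13). Of the 14 genes of the dystroglycan and dystrophin complex, 11 were tested and 9 were below 0, with a median of -0.36. At an unadjusted p under 0.05, 5 were lower, against 9.21% of all genes tested. Sspn, sarcospan, had -0.58 (SE 0.16), and the syntrophin genes Sntb2 and Sntb1 had -0.53 (SE 0.18) and -1.27 (SE 0.45), Sntb1 at no more than 3.16 CPM. The 6 receptors of the laminin-binding list, integrin chains and the Lutheran protein Bcam, had a median of -0.45 and none lower at an unadjusted p under 0.05. Itgb1, the shared integrin beta chain, had -0.17 (SE 0.12), Itga3 -0.56 (SE 0.39) and Itga7, the integrin chain of muscle, -0.39 (SE 0.29).

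The enzymes that build the laminin-binding sugar of dystroglycan had a median of 0.003 over 13 tested genes, with 6 below and 7 above 0. Pomgnt2 and Gmppb had -0.65 (SE 0.31) and 0.44 (SE 0.21). Of 17 heparan sulfate genes, all tested, 4 were lower at an unadjusted p under 0.05, against 9.21% of all genes tested. Their median was -0.18. The sulfotransferase gene Hs6st2 had -0.87 (SE 0.25), the sulfatase gene Sulf1 -0.58 (SE 0.18) and the sulfotransferase gene Hs6st1 -0.42 (SE 0.18). Of 9 genes for the agrin receptor and its synapse, 5 were tested, with a median of 0.14 and none past an unadjusted p of 0.05. Musk, the kinase that agrin activates, had 0.27 (SE 0.35), Chrna1 0.55 (SE 0.70) and Lrp4, the agrin receptor, -0.16 (SE 0.23).

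**Figure D5:**
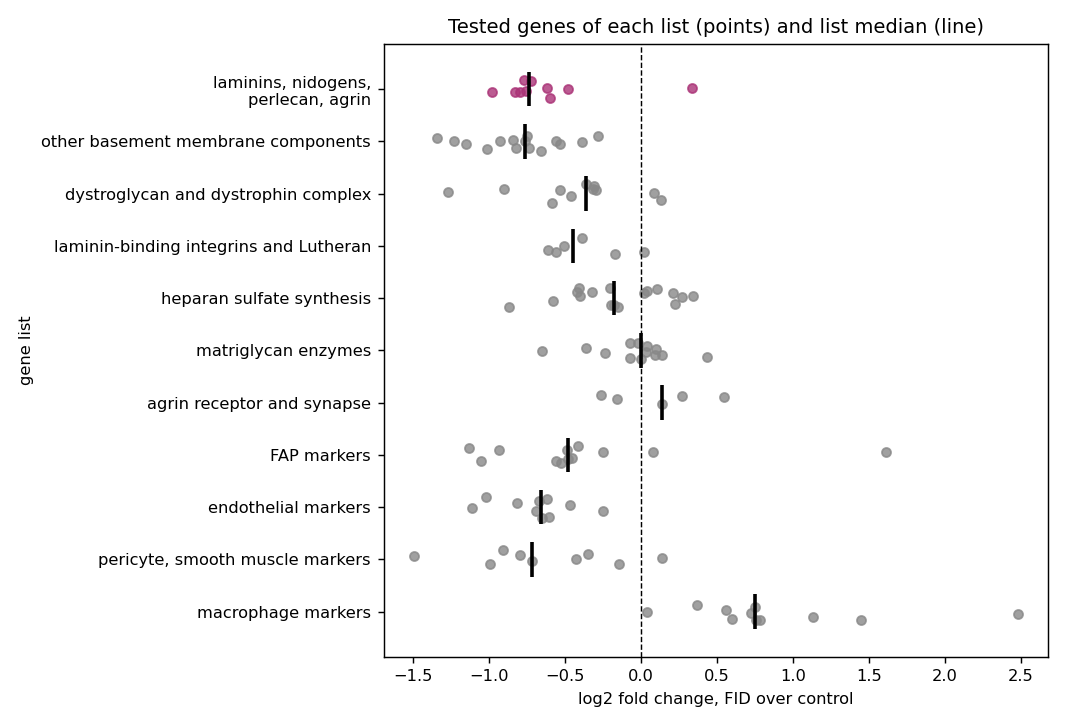
Log2 fold change of FID over control (horizontal axis) for the tested genes of each list (points) with the list's median (black line). Medians were -0.74 for the laminin, nidogen, perlecan and agrin genes and -0.76 for other basement membrane components, against 0.003 for enzymes of the dystroglycan sugar and 0.75 for macrophage markers.

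Markers of the cells that make or surround basement membranes differed between libraries too. In such RNA, fewer cells of a type and less RNA per cell cannot be told apart. Of 12 FAP markers, 10 were below 0 and 5 were lower at an unadjusted p under 0.05, against 52.2% and 9.21% of all genes. Their median was -0.48, and their summed level was 5313 to 5924 CPM in control and 4677 to 5760 CPM in FID. The 10 endothelial markers were all below 0, with a median of -0.66 and sums of 1378 to 4758 CPM in control and 1325 to 2143 CPM in FID, where control 1 held the highest value. The 9 pericyte and smooth muscle markers had a median of -0.72 and sums of 782 to 2214 CPM in control, control 1 again the highest, and 705 to 961 CPM in FID. The 11 macrophage markers were all above 0, with 5 higher at an unadjusted p under 0.05, against 9.81% of all genes. Their median was 0.75, and their sums were 3281 to 5299 CPM in control and 6493 to 9505 CPM in FID. The 6 tested of 7 Schwann cell markers had a median of 0.07, and their sums overlapped between the groups. Cd3e, a T cell marker, and Cidec and Lep, of adipocytes, had no count in any library, which allows up to 3 counts or 0.293 to 0.593 CPM. DESeq2 called 3 FAP markers lower (Mfap5, Cxcl14 and Gsn) and 1 higher (Ly6a), and 2 pericyte markers lower (Cspg4 and Notch3). It called 5 macrophage markers higher (Adgre1, Cd68, Ctss, Itgam and Fcgr1) and 0 endothelial markers. Over all genes, DESeq2 called 2.27% lower and 3.67% higher.

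Set against the FAP markers within each library, the 10 genes as a group overlapped between control and FID. Their mean log2(CPM + 1) minus that of the FAP markers was 1.16, 0.933 and 0.731 in control libraries 1 to 3, against 0.678, 0.683 and 0.830 in FID libraries 1 to 3. The means of this difference were 0.94 in control and 0.73 in FID, and 1.06 and 1.00 without Ly6a. Ly6a had the highest log2 fold change of the FAP markers (1.61, SE 0.51). Leaving out a marker that was higher in FID brings these means closer by construction, so they do not show equal levels. Dpp4, also above 0 (0.08, SE 0.37), was kept. Against Col1a1, the main collagen transcript, the means were -5.75 in control and -5.46 in FID, again with overlapping libraries. Each of the 10 genes overlapped between the groups when set against Pdgfra, the receptor that marks FAPs. The means for the 10 genes were -0.84 in control and -1.02 in FID. For Lama2 they were -1.90 and -2.44, and for Agrn, in the other direction, -3.02 and -2.30. Pdgfra was itself uneven, at 565, 872 and 792 CPM in control libraries 1 to 3 and 457, 563 and 606 CPM in FID libraries 1 to 3. Overlap against it therefore does not show equal levels. Against the endothelial markers the means were 1.29 in control and 1.23 in FID, and against the pericyte and smooth muscle markers 2.78 and 2.67, with overlapping libraries in both. Against the macrophage markers the values were 0.57, 0.40 and 0.75 in the controls and -0.86, -1.10 and -0.82 in FID, with no overlap. The part of cell content in the differences was not tested.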

How the data were processed

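RNA of 6 samples labelled mouse skeletal muscle (3 control, 3 FID, grouped by their titles) was sequenced. The kit was strand-specific, with 1000 ng of input RNA of integrity number above 5.6, per the labels' protocols. The authors deposited raw counts of reads for each Ensembl gene. The submitters' processing notes name the build mm10 and STAR, HTSeq, cutadapt, Bowtie2 2.5.4, SAMtools and DESeq2. What each did, which annotation release was used and how strand was set is not given in the sources used here. Entries naming no gene (9.60% to 10.9% of each file) were left out. Symbols came from a name table (42462 of 43432 identifiers), coordinates and exon lengths from GENCODE M21.

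Genes were filtered with filterByExpr (minimum count 10, minimum total 15), scaled with TMM factors and tested with edgeR 4.0.16 (two-sided quasi-likelihood test, group as the only term, Benjamini-Hochberg over 12881 genes). The SE is the absolute log2 fold change over the square root of F, and intervals (95%) built on it are approximate. DESeq2 1.42.0 and limma-voom (limma 3.58.1) were alternatives, beside other scalings, no filter, a replicate term and leaving out each library. Scripts were tested on simulated data. Ratios took counts plus 0.5 per kb of exon. All 10 genes are named, and from each related list up to 3 with the smallest p, with Dag1 and the other laminin chains always; some genes under this rule are not reported here. Single cell markers, genes that only DESeq2 called, Bcam and Col1a1 are named outside this rule, after their values were seen. The genes and lists were chosen with earlier results of these data known. The labels name no separate animals, so p-values cover the spread of these libraries, which may be technical, and floors cover counting error only. No library was a copy of another (chi-square over degrees of freedom 14.1 to 46.0 within groups).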

Additional observations from a re-analysis of the deposited data

How the results depend on the processing

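The 9 genes with a log2 fold change below 0 kept that sign, and Agrn stayed above 0, in all 12 alternative fits. The number passing the adjusted threshold was 0 in the fit reported and with DESeq2 size factors, library totals, limma-voom or a replicate term, 2 with no filter on low counts, 6 with DESeq2 and 0 to 3 with 1 library left out, the 3 being without FID 1; the cause was not tested. The number lower at an unadjusted p under 0.05 was 8 and ranged from 6 (without FID 3) to 9 (without control 3, and with no filter). The median log2 fold change was -0.82 to -0.57 with 1 library left out and -0.74 to -0.68 in the remaining alternatives. With the replicate block the median was -0.68, with 8 genes lower at an unadjusted p under 0.05 and 0 called. Same-numbered libraries did not all deviate together: the correlations of their deviations from group means across genes were 0.012, -0.295 and 0.320. The last was the highest between any control and FID library, whereas control 1 and 2 correlated better with another number. Deviations from a group's own mean are tied to each other, so these correlations cannot exclude pairing. The labels state none, and the numbers were not taken to pair libraries. The count of gene ratios without overlap was 1, and 1 to 3 with 1 library left out. With 1 library left out, the log2 ratio differences changed sign for Lama4 to Lama5 (-0.52 to 0.16), Lamb2 to Lamb1 (-0.14 to 0.39) and Nid2 to Nid1 (-0.073 to 0.053). No length scaling, 5 in place of 0.5 added to counts, and the block left each ratio's direction as it was.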

Other observations

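The genes whose pattern over the 6 libraries lay nearest to the mean pattern of the 10 were Prrc2b, Plk3, Zfp335, Actn1 and Itga9, with root mean square differences of 0.047, 0.047, 0.048, 0.050 and 0.060 in centred log2 CPM, against a median of 0.441 over all genes tested. Actn1, an actin cross-linker of focal adhesions, measured 523, 389 and 324 CPM in control 1, 2 and 3 and 287, 256 and 262 CPM in FID. Itga9, an integrin chain, measured 97.3, 77.9 and 63.1 CPM in control and 58.5, 50.5 and 46.9 CPM in FID. The 10 genes themselves lay between 0.098 (Hspg2) and 0.708 (Agrn) from their mean. The likeness is a description over 6 libraries that share the 2 groups.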
